A study of Mus musculus with 12 samples.

Results

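Open chromatin was compared between cells kept in estradiol (E2) throughout and cells deprived of E2 for 72 h and then given it back for 48 h, so that both groups were in E2 at harvest. The members were all regions of the peak lists of these 2 groups, after duplicate entries and intervals over 10000 bases were dropped and overlapping entries merged. A peak with no overlap of at least 1 base in the other list was termed 0h-only or 72h-only, and the rest were termed shared. The 2 lists held 14774 regions of the 16028 found in all 6 lists of the series, and these divided into 5231 0h-only, 1609 72h-only and 7934 shared regions.

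The cells were ER-Hoxa9-Lys-GFP cells, a murine myeloid progenitor line of C57BL/6 origin that grows with stem cell factor as its cytokine. All groups carry Hoxa9 joined to an estrogen receptor domain, so that Hoxa9 acts only while E2 is present, and a GFP reporter tied to lysozyme expression. Withdrawal was made by washing the cells, and ATAC-seq was run on nuclei. The continuous-E2 group and the 72 h group had 2 libraries each, described by 1 peak list per group, as had the groups deprived for 24, 40 and 56 h, which had 96, 80 and 64 h of add-back, and a group left for 120 h without E2. Those 4 other lists are used only to ask whether a region was called there. No control group without the fusion, and no 72 h group harvested before add-back, was analysed here. Nothing in the sources used here says whether the 2 libraries of a group came from separate cultures.

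Hoxa9 is a homeodomain factor that keeps myeloid progenitors immature together with its cofactors Meis1 and Pbx, and it acts largely at enhancers away from gene starts. When Hoxa9 activity ends, such progenitors mature along the neutrophil and monocyte lineages, on which C/EBP factors, PU.1 and Gfi1 act. ATAC-seq marks DNA that the Tn5 transposase can reach, and a peak caller reports the stretches where reads pile up. Promoters rich in CpG are open in most cell types, whereas distal elements differ more between stages of differentiation.

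The sequences just upstream of the start sites of genes on which the comparison turns are shown first, because a region of 1 class covered each of these start sites. Each stretch is the 150 bases before the RefSeq start on GRCm38.p6, written 5′ to 3′ on the gene's strand. Capitals mark matches on either strand to the letters searched. For general promoter factors these were GGGCGG, typical of SP and KLF factors, the box CCAAT of the factor NF-Y, and the letters CCGGAAG of many ETS factors. For myeloid factors they were GAGGAAGT as read by PU.1, TTGCNNAA as read by C/EBP factors, TGANTCA as read by AP-1 and TGTGGTT as read by RUNX factors. The homeodomain letters were TGACAG for MEIS and TGATTNAT for HOX with PBX. The AP-1 letters read alike on both strands, and matches at different places did not overlap. The first 4 start sites lay in 0h-only regions and the last 4 in 72h-only regions. A match is a run of letters and not a measured binding site.
Meis1 (chr11:19018970-19019119, minus strand): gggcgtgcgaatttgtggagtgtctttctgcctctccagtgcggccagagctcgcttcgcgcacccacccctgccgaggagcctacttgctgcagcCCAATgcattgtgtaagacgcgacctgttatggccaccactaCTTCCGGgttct
Flt3 (chr5:147400490-147400639, minus strand): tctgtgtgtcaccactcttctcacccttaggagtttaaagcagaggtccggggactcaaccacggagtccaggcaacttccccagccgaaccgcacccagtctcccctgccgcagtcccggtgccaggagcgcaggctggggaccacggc
Mpo (chr11:87793634-87793783, plus strand): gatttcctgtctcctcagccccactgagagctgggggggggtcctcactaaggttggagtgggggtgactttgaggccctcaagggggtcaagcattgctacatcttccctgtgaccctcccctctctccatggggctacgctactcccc
Tgfbr2 (chr9:116175364-116175513, minus strand): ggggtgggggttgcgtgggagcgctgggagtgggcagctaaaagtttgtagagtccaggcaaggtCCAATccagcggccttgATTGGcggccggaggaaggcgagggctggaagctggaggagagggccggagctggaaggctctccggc
Csf3r (chr4:126024509-126024658, plus strand): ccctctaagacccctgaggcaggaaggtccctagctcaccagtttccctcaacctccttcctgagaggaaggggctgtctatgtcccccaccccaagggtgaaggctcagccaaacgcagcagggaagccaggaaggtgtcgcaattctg
Ms4a3 (chr19:11640852-11641001, minus strand): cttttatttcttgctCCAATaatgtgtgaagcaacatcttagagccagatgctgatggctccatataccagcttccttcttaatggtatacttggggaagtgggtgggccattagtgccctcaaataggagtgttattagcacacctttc
Ly6c2 (chr15:75111938-75112087, minus strand): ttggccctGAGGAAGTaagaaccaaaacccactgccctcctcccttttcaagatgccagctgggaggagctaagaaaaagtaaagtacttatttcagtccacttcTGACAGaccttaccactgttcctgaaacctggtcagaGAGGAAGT
Cd68 (chr11:69666171-69666320, minus strand): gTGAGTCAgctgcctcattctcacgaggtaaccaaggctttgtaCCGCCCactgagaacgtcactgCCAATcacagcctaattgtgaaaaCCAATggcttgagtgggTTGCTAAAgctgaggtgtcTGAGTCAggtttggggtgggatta

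The stretches differed in composition. Over the 300 bases around the start, the ratio of observed to expected CpG was 0.589 for Meis1, 0.647 for Flt3 and 0.627 for Tgfbr2, against 0.0871 for Mpo. Csf3r had 0.326, Cd68 had 0.240, and Ms4a3 and Ly6c2 had no CpG. Other start sites went the other way. In 72h-only regions Il6ra had 0.769 and Jun 0.594, and in 0h-only regions Cd34 had 0.374 and Cst7 0.237. The stretches shown do not stand for their classes, since the ratio exceeded 0.6 in 60.6% of 0h-only and 84.1% of 72h-only windows. The Ly6c2 stretch held the PU.1 letters at 2 places and the MEIS letters at 1, and the Cd68 stretch held the AP-1 letters at 2 places.

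Of the 13165 continuous-E2 peaks, 39.7% were 0h-only (95% Wilson interval 38.9 to 40.6), and of the 9581 peaks of the 72 h list 16.8% were 72h-only (16.1 to 17.6). The continuous-E2 list was also longer and its peaks wider, covering 11.5 Mb with a median width of 839 bases against 5.88 Mb and 594 bases. With the widest 9581 peaks of each list, the 0h-only share was 30.0% and the 72h-only share 29.6%, which must come out nearly alike when the lists are equally long. Among peaks no narrower than the median of their own list the shares were 25.6% and 10.5%. Each group had 1 list with no score, count or depth. No test between groups was possible, every interval covers counting error over regions only, and an absent call cannot be told apart from a peak missed at low depth. In bulk samples, fewer cells with an open region and less opening per cell cannot be told apart either.

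Under the overlap rule no peak lay close to the limit between classes, and the reason was not tested. The closest 0h-only peak lay 799 bases from a peak of the 72 h list, and the closest 72h-only peak lay 756 bases from a continuous-E2 peak. The smallest overlap of a shared pair was 129 bases and the median overlap was 609 bases. A typical 0h-only peak lay 49.6 kb from the nearest 72 h peak, and a typical 72h-only peak lay 24.1 kb from the nearest continuous-E2 peak.

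The labelled cell type was checked against 11 myeloid progenitor genes. Kit, the stem cell factor receptor, Spi1 (encoding PU.1), Cebpa and Myb each had a shared region at a gene boundary, that is, within 1000 bases of the start or end of the gene. Cd34 and Gfi1 had a shared region between genes. Flt3, Mpo, Prtn3 and Ctsg had regions but no shared one, and Elane, which encodes neutrophil elastase, had none in either list. Of all protein-coding genes 45.9% had a region. The lists for other lineages gave counts not far from this or lower. Of the 20 erythroid and megakaryocyte genes 8 had a region, of the 22 lymphoid genes 8, and of the 17 mast cell, basophil and eosinophil genes 5. Cd79a, Cd3e, Gata1 and the globin genes had none. Other members did have regions, and Cd3d, Ebf1, Klf1, Tfrc and Nfe2 each had a shared region at a gene boundary. Pax5 and Gata3 had a shared region inside the gene. The lineage lists together held 14 0h-only, 6 72h-only and 9 shared regions, and their part in the results was not tested.

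Genes of the progenitor and Hoxa9-associated list held 47 0h-only, 12 72h-only and 24 shared regions. Of the list's regions in continuous E2, 66.2% were 0h-only (Wilson interval 54.6 to 76.1), against a background of 37.5% over all 12227 gene-assigned regions of that list. Of the list's regions after 72 h, 33.3% were 72h-only (20.2 to 49.7), against 16.3% of all assigned regions, so both shares lay above their backgrounds. Among peaks no narrower than their list's median, the 72h-only share was 5.88%. Of its 36 genes, 22 had a 0h-only region, 11 a 72h-only region and 19 a shared region. Of the 47 0h-only regions 4 lay at a gene boundary, against 25.4% of all assigned 0h-only regions, and of the 24 shared regions 13. Over all genes there were 3421 0h-only and 1910 shared regions away from boundaries, and 1166 and 5730 at them. The background of 37.5% was not matched for position, and the part of position in the list's share was not tested. The lists of 24, 40, 56 and 120 h held 28, 15, 7 and 4 of them, near the 56.0%, 30.9%, 12.5% and 7.15% of all assigned 0h-only regions. These genes were listed with earlier results of the series in view, so the list's direction is not independent evidence.

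Meis1, the homeodomain partner of Hoxa9, had 6 0h-only regions and no other. Its boundary region (chr11:19018411-19020716) was 2306 bases wide in continuous E2, 2229 after 24 h and 954 after 40 h, and it was not called after 56 or 72 h or at 120 h. Of its 5 regions inside the gene, 3 were called in continuous E2 alone, and 1 (chr11:18924234-18925327) was called in every list but that of 72 h, at 1094, 688, 452, 388 and 463 bases. The Meis1 boundary was thus called in the 24 h and 40 h lists and in none of the 3 lists of longer withdrawal.

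Flt3, a receptor tyrosine kinase of early progenitors, had 4 0h-only regions and 1 72h-only region. The boundary region (chr5:147399775-147401194) measured 1420 bases in continuous E2, 1172 after 24 h and 817 after 40 h, with no later call. The 72h-only region, inside the gene 11.1 kb from its nearest boundary, had the opposite pattern, at 431 bases after 56 h, 420 after 72 h and 467 at 120 h, with no call in the 3 lists of shorter withdrawal. Both kinds of region therefore lay in 1 gene.

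Cd34, the surface sialomucin of stem and progenitor cells, had 4 0h-only regions and 1 shared one. The region at its boundary was 968 bases wide in continuous E2 and was called in no other list. A region 14.9 kb away was called at 1186, 981, 862 and 679 bases from 0 to 56 h and not afterwards. The shared region 10.4 kb away was 785 bases wide in continuous E2 and 390 after 72 h.

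Mycn, a Myc family factor, had a 0h-only boundary region of 1243 bases, which was 1035 bases wide after 24 h and was not called later. Erg, an ETS factor, had 2 0h-only regions and a 72h-only region of 232 bases called in no other list. Foxp1, a forkhead factor, had 4 0h-only, 1 72h-only and 1 shared region. Ikzf1, which encodes Ikaros, also had both kinds. A 0h-only region 27.2 kb away was 1382 bases wide in continuous E2, 1268 after 24 h and 451 after 56 h. The boundary region was absent in continuous E2 and after 24 h and measured 793, 921, 778 and 679 bases in the lists of 40, 56, 72 and 120 h. Gata2, a stem and mast cell factor, had a single region, 72h-only and 27.5 kb away, of 756, 714, 326 and 288 bases in the lists of 24 to 72 h. Hoxa9 itself had no region in either list.

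**Figure D1:**
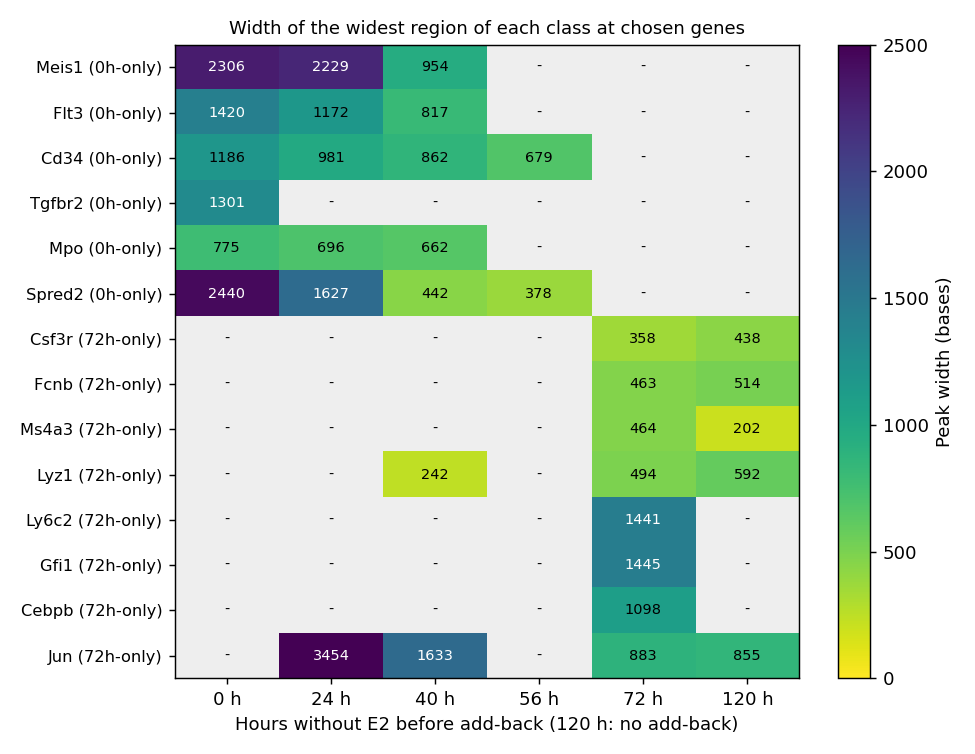
Width in bases, in each of the 6 lists (columns, hours without E2), of the widest 0h-only or 72h-only region of 14 genes (rows), picked after their values were seen. Dashes mark lists with no call. The Meis1 region goes from 2306 bases in continuous E2 to 954 after 40 h and then to no call, whereas the Csf3r region is called at 358 and 438 bases in the 72 h and 120 h lists alone.

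Primary granule and promyelocyte genes were divided between the classes, with 6 0h-only, 5 72h-only and 2 shared regions over 14 genes. The 0h-only regions belonged to Mpo (myeloperoxidase), Prtn3 (proteinase 3), Ctsg (cathepsin G), Srgn (the granule proteoglycan serglycin) and Cst7 (cystatin F). The 72h-only regions belonged to Csf3r (the G-CSF receptor), Fcnb (ficolin B), Ms4a3, Hp (haptoglobin) and Igsf6. No gene of the list had both kinds. The list's 0h-only share was 75% (40.9 to 92.9), against 37.5% of all assigned regions. Its 72h-only share was 71.4% (35.9 to 91.8), against 16.3% over all gene-assigned regions of the 72 h list.

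At Mpo, the boundary region was 775 bases wide in continuous E2, 696 after 24 h and 662 after 40 h, without a call in the other lists. Prtn3 had a region 1.49 kb away of 847 bases, called after 24 h as well, at 918 bases. The region 2.61 kb from Ctsg was 895 bases wide in continuous E2, 717 after 40 h and 857 after 56 h. Cst7 had a region of 905 bases at its boundary and one of 544 bases nearby, both called in continuous E2 alone. None of these regions was called at 120 h, but only 7.15% of all assigned 0h-only regions were, so this does not set them apart.

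The 72h-only regions of the same list each measured under 500 bases after 72 h, and 4 of the 5 were also called at 120 h, against 58.7% of all assigned 72h-only regions. The Csf3r region, centred 72 bases downstream of a start site, measured 358 bases after 72 h and 438 at 120 h. The Fcnb region measured 463 and 514 bases, and the Ms4a3 boundary region 464 and 202 bases, in the same 2 lists. The Hp boundary region was called in 3 lists, at 398 bases after 56 h, 480 after 72 h and 411 at 120 h. None of the 5 was called after 24 or 40 h, against 41.9% and 52.9% of all.

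Late neutrophil genes had 5 0h-only, 5 72h-only and 8 shared regions, and 18 of their 32 genes, among them Lyz2, Camp, Ngp and Lcn2, had none, near the share of all genes without a region. Lyz1, a lysozyme gene, had a 72h-only region 8.79 kb away of 242 bases after 40 h, 494 after 72 h and 592 at 120 h. S100a9 (calprotectin subunit) and Ltf (lactoferrin) each had a 0h-only region, of 483 and 338 bases. The list's 0h-only share of 38.5% was near the 37.5% of all assigned regions. Its 72h-only share was also 38.5% (17.7 to 64.5), against 16.3% of all.

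Monocyte and macrophage genes held 6 0h-only, 7 72h-only and 6 shared regions. The 0h-only share was 50% (25.4 to 74.6) against 37.5% of all assigned regions, and the 72h-only share 53.8% (29.1 to 76.8) against 16.3%. Ly6c2, which encodes a surface marker of inflammatory monocytes, had 2 72h-only regions. One, 21.2 kb away, was 1441 bases wide and called after 72 h alone, and the other, at the boundary, was 516 bases wide after 72 h and 200 at 120 h. Ly6c1 and Ly6c2 are near-identical copies, so reads may be split between them. Cd68, a lysosomal protein of macrophages, had a boundary region of 202 bases after 72 h and 242 at 120 h. Cx3cr1, the fractalkine receptor, had a region of 233 bases inside the gene, 9.26 kb from its nearest boundary, called at 72 h alone. Csf1r, the M-CSF receptor, had a 0h-only region inside the gene of 978 bases, called after 24 h at 982 bases and not later. Phagocyte function genes had 17 0h-only, 7 72h-only and 16 shared regions. Their 0h-only share was 51.5% (35.2 to 67.5) against 37.5%, and their 72h-only share 30.4% (15.6 to 50.9) against 16.3%. Among these genes Lyn, a Src family kinase, and Alox5, the 5-lipoxygenase, had 0h-only regions, with a further 72h-only region at Lyn.

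Myeloid transcription factors held 8 0h-only, 5 72h-only and 13 shared regions. The list's 0h-only share of 38.1% (20.8 to 59.1) was near the 37.5% of all assigned regions. Its 72h-only share was 27.8% (12.5 to 50.9) against 16.3%. Gfi1, a repressor needed for neutrophil development, had a boundary region of 1445 bases called after 72 h and in no other list. Cebpb, a C/EBP factor of stress granulopoiesis and monocytes, had a boundary region with the same single call, at 1098 bases, and 2 0h-only regions of 797 and 265 bases between genes. Neither boundary region was seen in a second list. Cebpe had a 0h-only region 3.88 kb away, of 658 bases in continuous E2, 207 after 40 h and 439 after 56 h. The shared Cebpa boundary region was 1616 bases wide in continuous E2 and 754 after 72 h, and it was not called after 40 or 56 h or at 120 h. The shared Irf8 boundary region was 631 and 487 bases wide.

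Immediate early and AP-1 genes held 8 0h-only, 7 72h-only and 26 shared regions. The list's 0h-only share was 23.5% (12.4 to 40.0) against 37.5% of all assigned regions. Its 72h-only share was 21.2% (10.7 to 37.8) against 16.3%. Nr4a2, an orphan nuclear receptor, had the widest gene-assigned 0h-only region of all, of 3426 bases, 1105 after 24 h and 697 after 40 h. Egr1, a zinc finger factor, had a boundary region of 1551, 1584 and 1516 bases in the same 3 lists. Jun, an AP-1 subunit, had 1 region of each kind. The 72h-only region at its boundary was not called in continuous E2 but measured 3454 bases after 24 h, 1633 after 40 h, 883 after 72 h and 855 at 120 h. The 0h-only region 23.2 kb away measured 913, 746 and 692 bases from 0 to 40 h.

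Cytokine receptors and feedback regulators held 35 0h-only, 10 72h-only and 33 shared regions. The 0h-only share was 51.5% (39.8 to 62.9) against 37.5% of all assigned regions, and the 72h-only share 23.3% (13.2 to 37.7) against 16.3%. Tgfbr2, the type II TGF-beta receptor, had 5 0h-only regions and no other. The widest, 1301 bases at the boundary, was called in continuous E2 alone. Spred2, an inhibitor of Ras-ERK signalling, had 4, and the one at its boundary measured 2440, 1627, 442 and 378 bases from 0 to 56 h. Dusp4, an ERK phosphatase, and Ifngr2, a chain of the interferon-gamma receptor, had 2 each. On the other side, Il6ra, the interleukin-6 receptor, had 2 72h-only regions. The one at its boundary was 816 bases wide after 24 h, 662 after 40 h, 590 after 72 h and 549 at 120 h. Cish, a feedback inhibitor of STAT5 signalling, had a boundary region of 480 to 601 bases in every list but that of continuous E2.

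Cell cycle genes had 6 0h-only, 13 72h-only and 29 shared regions. Their 0h-only share was 17.1% (8.10 to 32.7), below the 37.5% of all assigned regions, and their 72h-only share was 31.0% (19.1 to 46.0), above 16.3%. These backgrounds were not matched for position. At boundaries the list held 0 0h-only and 22 shared regions, against 1166 and 5730 over all genes. No gene of the list had 0h-only regions alone, and 22 of the 36 had shared regions alone. Of the 13 72h-only regions 7 lay at gene boundaries, near the 50.1% of all assigned 72h-only regions. The 56 h list held 11 of them and the 24 h list 2, against 62.6% and 41.9% of all. Rrm2, a ribonucleotide reductase subunit, had a boundary region of 1065, 946, 796, 810 and 691 bases in the lists of 24, 40, 56, 72 and 120 h. Mcm3, of the replicative helicase, had one of 625, 560, 637 and 579 bases in the lists from 40 h on. Cdkn2c, which encodes the inhibitor p18, had one of 609 bases after 56 h, 816 after 72 h and 610 at 120 h. Ccnd2 (cyclin D2), Rb1 and E2f3 each had 2 72h-only regions. Without narrow peaks, 5% of the list's continuous-E2 regions were 0h-only.

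Housekeeping genes set a level for calls that differ at genes open in most cells. They held 7 0h-only, 2 72h-only and 26 shared regions, shares of 21.2% (10.7 to 37.8) and 7.14% (1.98 to 22.6), and 21 of the 32 genes had shared regions alone. The 72h-only share was 25% with lists of equal length and 27.6% under 50% reciprocal overlap. The boundary region of Polr2a, the large subunit of RNA polymerase II, measured 1395, 1230, 1112, 1025 and 1013 bases and was missing from the 72 h list alone. Gapdh and Tbp had no region in either list. The estrogen-responsive list, to which E2 itself could matter, had 8 0h-only, 1 72h-only and 5 shared regions. This list's 0h-only share was 61.5% (35.5 to 82.3) against 37.5% of all assigned regions. Its 72h-only share was 16.7% (3.01 to 56.4) against 16.3%. Its member Nrip1, a nuclear receptor corepressor, had a boundary region of 1750 bases in continuous E2 and 1091 to 1575 bases in the other lists, with no call after 72 h.

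**Figure D2:**
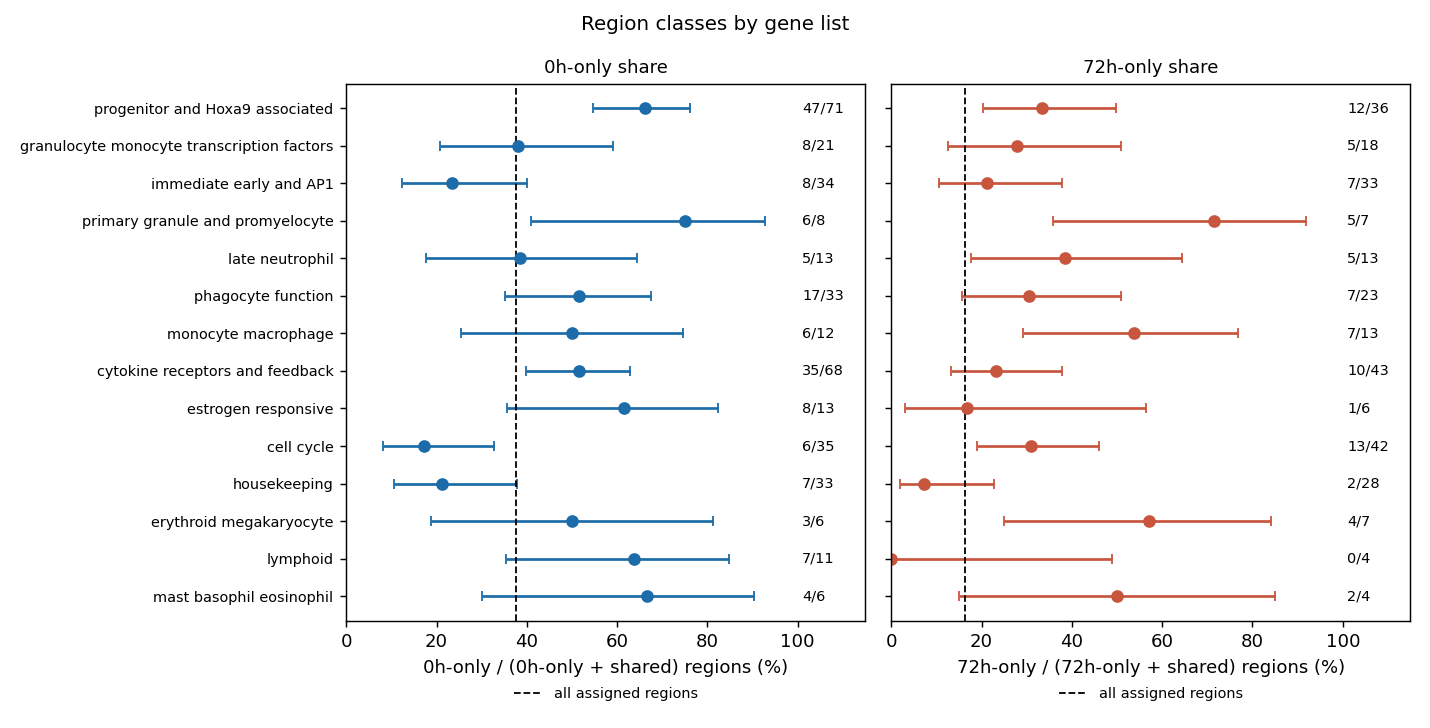
Share of the regions of each gene list that were 0h-only (left, percent of 0h-only plus shared regions) or 72h-only (right, percent of 72h-only plus shared), with counts at the right and 95% Wilson intervals as bars. Dashed lines mark all assigned regions, 37.5% and 16.3%. The progenitor list at 66.2% lies to the right of the left line and the cell cycle list at 17.1% to its left.

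Over all protein-coding genes, Prkag2, a subunit of the AMP-activated kinase, and Auts2 had the most 0h-only regions, with 7 each. Cxxc5, Meis1, Zfhx3, 2900026A02Rik, Tenm4 and Tiam1 had 6, and Itpr2 and Tgfbr2 had 5. Auts2, Tenm4 and Zfhx3 are long genes, and their regions lay up to 441, 368 and 333 kb from a gene boundary. The 6 regions of 2900026A02Rik lay inside the gene and were 542 to 1391 bases wide. Of these 6, 4 were called after 24 h and none later. Among 72h-only regions the most at 1 gene was 3, at Pip5k1b, Ssh2, Ksr1, Mtus1 and Bahcc1. The 3 regions of Ssh2, a slingshot phosphatase, lay inside the gene and were all called at 120 h, at 384 to 671 bases. In all, 762 genes had 2 or more 0h-only regions and 82 had 2 or more 72h-only regions.

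Of the 10055 genes with a region, 2061 had 0h-only regions alone, 773 had 72h-only regions alone and 5478 had shared regions alone. Both changes occurred in 1 gene at 367 genes, of which 24 were in a gene list. Of the 3421 assigned 0h-only regions away from boundaries, 1000 (29.2%, 27.7 to 30.8) belonged to a gene with a shared region at its boundary. Of all 21883 protein-coding genes, 5657 held shared regions alone at the boundary. A further 34 held shared and 0h-only regions there, and 11 shared and 72h-only regions. A difference from this background was not tested. At 1113 genes the boundary held a 0h-only region alone and at 720 a 72h-only region alone. The genes of 0h-only regions away from boundaries were long, with a median of 62.8 kb against 44.2 kb for 72h-only and 47.7 kb for shared regions in that position, and 17.2 kb for all protein-coding genes.

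The classes differed in position. At a gene boundary lay 22.3% of 0h-only, 46.4% of 72h-only and 72.2% of shared regions. The 0h-only share was 49.9 percentage points below the shared one (95% Newcombe interval 48.4 to 51.4) and 24.1 points below the 72h-only one (21.5 to 26.8). Among peaks no narrower than their list's median, 38.5% of 0h-only and 69.5% of 72h-only regions lay at a boundary. Inside genes, away from boundaries, lay 40.3%, 26.2% and 15.8%, and between genes 37.4%, 27.4% and 12%. In every class a region counted once, and neighbouring regions of a gene are not independent.

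Start sites gave the same order. The centre lay within 1000 bases of a RefSeq start for 22.3% of 5069 0h-only, 45.0% of 1580 72h-only and 68.6% of 7711 shared regions. Around the start the classes were placed differently. Among those close to a start, the median centre of 0h-only regions lay 92.5 bases downstream (quartiles -44.1 and 232), that of 72h-only regions 2 bases upstream (-86.3 and 69.8) and that of shared regions 34.5 bases downstream (-61.5 and 137). The centre was upstream of the start in 31.6%, 50.9% and 40.1%. Over whole classes the median widths were 681, 458 and 923.5 bases, and the part of width in these placements was not tested.

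**Figure D3:**
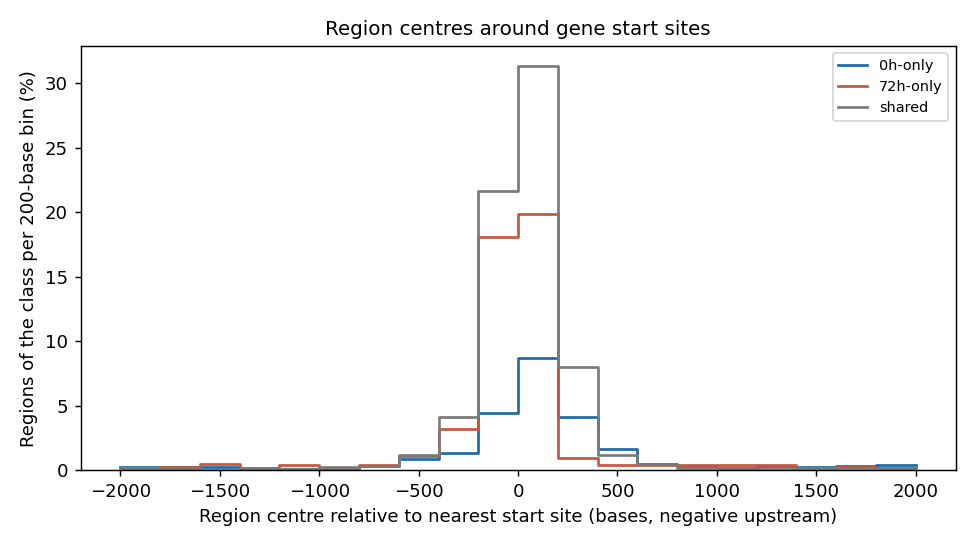
Percent of the regions of each class whose centre falls in each 200-base bin around the nearest gene start (x axis, bases, negative upstream). All 3 classes peak at the start, shared regions highest, and the 0h-only line is the lowest at the start and reaches further downstream, with a median of 92.5 bases among centres within 1000 bases.

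Width also separated the classes. Median widths were 681 bases for 0h-only (quartiles 501 and 923.5), 458 for 72h-only (324 and 644) and 923.5 for shared regions (744 and 1134). The same shared region was narrower after 72 h in 7673 of 7934 cases (96.7%), with a median of 920 bases in continuous E2 and 615 after 72 h and a median ratio of 0.686 (quartiles 0.574 and 0.796). It was wider in 239. The ratio was alike at boundaries (0.690) and away from them (0.675). List length moved with width, depth was unknown, and the part of either in this difference was not tested.

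Narrow continuous-E2 peaks lacked a partner more often, both at boundaries and away from them. When these peaks were put in 10 width classes of equal size, 76.3% of the narrowest class were 0h-only, and 23.3% of the ninth. Within each class the share was higher away from boundaries. In the narrowest it was 80.3% there against 49.1% at boundaries, and in the widest 46.0% against 21.0%. At boundaries the share was lowest in the sixth class (11%, 9.02 to 13.2) and was higher again in the widest (21.0%, 18.5 to 23.6), where 206 of 982 peaks were 0h-only. Those wide boundary regions included the ones at Kcnk12, a potassium channel gene, with 2617 bases and no other call, and at Tgif1, a TALE homeodomain repressor, with 2556 bases in continuous E2, 2241 after 24 h and 2493 after 40 h. The region at Cited2, a transcriptional coregulator, measured 2385, 2421 and 1494 bases in the same 3 lists. Tgif1 and Kcnk12 were named by width, and Cited2 was chosen after its values were seen.

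**Figure D4:**
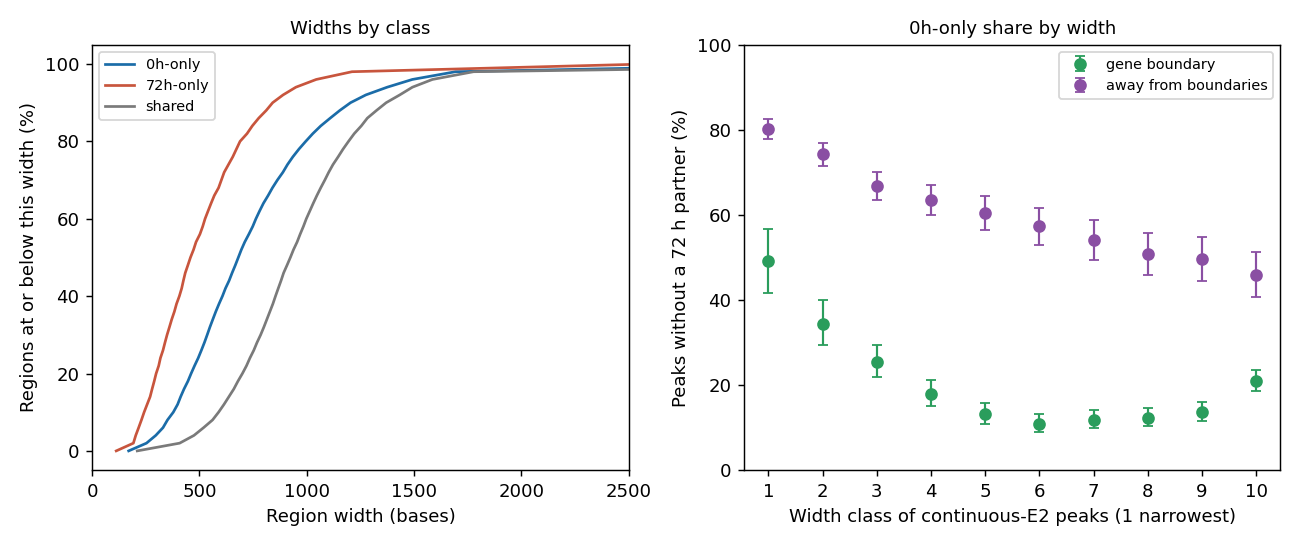
Left, cumulative percent of regions (y axis) at or below a width in bases (x axis) for each class. Right, percent of continuous-E2 peaks without a 72 h partner in each of 10 width classes, with 95% Wilson intervals, at gene boundaries and away from them. The 72h-only curve rises first, with a median of 458 bases, and the points away from boundaries stay above those at boundaries, from 80.3% to 46.0%.

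The 4 other lists were not used by the classes. They held fewer 0h-only regions the longer the withdrawal, and more 72h-only regions up to 56 h. The lists of 24, 40, 56 and 120 h held 56.0%, 30.4%, 12.2% and 6.88% of 0h-only regions, against backgrounds of 77.8%, 67.0%, 58.8% and 49.4% of all continuous-E2 peaks. Of 72h-only regions 40.4%, 51.6%, 61.9% and 58.5% were called, against 83.6%, 84.4%, 84.7% and 74.1% of all 72 h peaks. Shared regions were called in 92.2%, 91.1%, 89.4% and 77.4%. The difference of 0h-only minus 72h-only was 15.6 points after 24 h (12.8 to 18.3), -21.2 after 40 h (-24.0 to -18.5), -49.7 after 56 h (-52.2 to -47.1) and -51.6 at 120 h (-54.1 to -49.1). With lists of equal length, the shares called after 24 h were 63.8% of 0h-only and 61.1% of 72h-only regions, and at 120 h 8.89% and 62.2%. The 72h-only shares after 24 h and at 120 h were thus alike in that setting. The 4 lists held 11465, 9940, 8989 and 7987 peaks, so list length ran with this order, and its part was not tested. Longer withdrawal came with shorter add-back, so duration off and duration back cannot be told apart.

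Both positions showed this order. Of 0h-only regions at boundaries 62.3% were called after 24 h, 27.3% after 56 h and 14.5% at 120 h, and of the others 54.2%, 7.90% and 4.70%. For 72h-only regions the shares after 24 h were 55.7% at boundaries and 27.1% away from them, and at 120 h 61.4% and 55.9%.

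**Figure D5:**
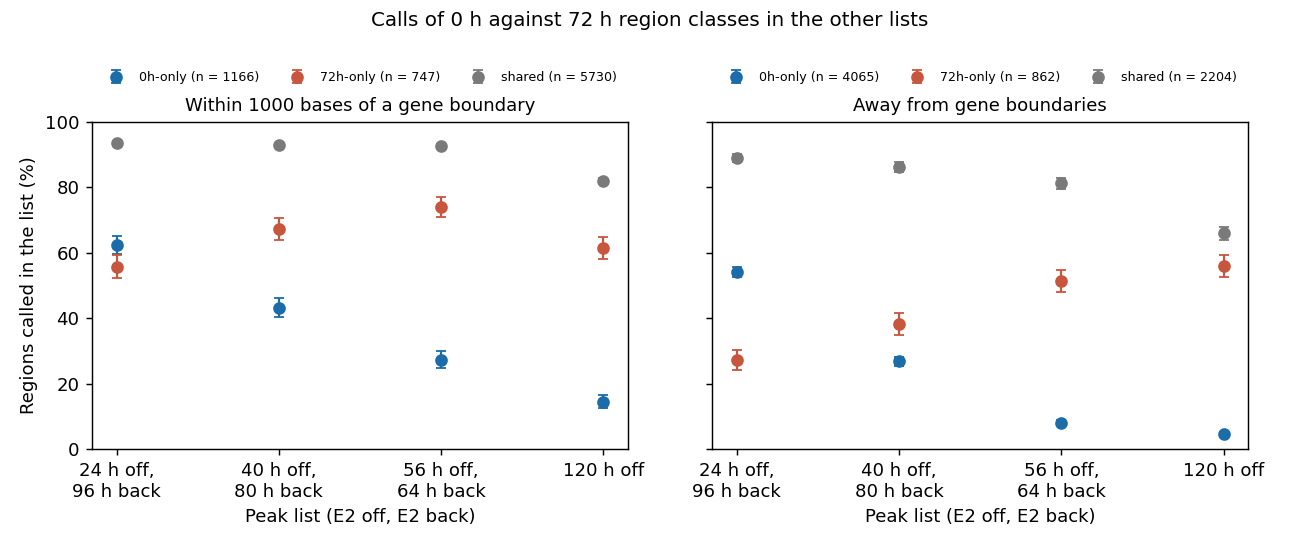
Percent of 0h-only, 72h-only and shared regions called in each of the 4 other lists (x axis, hours without E2 and hours of add-back), at gene boundaries (left) and away from them (right), with 95% Wilson intervals. Away from boundaries the 0h-only points go from 54.2% to 4.70% and the 72h-only points from 27.1% to 55.9%.

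Where regions were called in the other lists, they were narrower the longer the withdrawal up to 56 h, as were the lists' peaks in general. Where a 0h-only region was called after 24 h, its width was a median 0.884 of its continuous-E2 width over 2929 regions, after 40 h 0.768 over 1591 and after 56 h 0.632 over 639. Shared regions had ratios of 0.923, 0.811 and 0.691. At 120 h the ratio was 0.645 for 0h-only regions, over 360 regions, and 0.666 for shared ones. For 72h-only regions the width after 72 h is the reference, and the direction was the same up to 56 h. The median ratio to it was 1.33 after 24 h over 650 regions, 1.12 after 40 h over 831, 0.988 after 56 h over 996 and 1.00 at 120 h over 941. The median peak width of the whole lists was 839, 768, 696, 602, 594 and 581 bases from 0 to 120 h, and its part in these ratios was not tested. Only regions still called enter these ratios.

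Of the 0h-only regions, 1966 (37.6%) were in no other list, 1394 were called after 24 h alone, 886 after 24 and 40 h and 306 after 24, 40 and 56 h. Their median widths were 586.5, 664, 749 and 855.5 bases in that order. A further 110 were called in all 4 other lists, so that only the 72 h list lacked them. These were 1053.5 bases wide in the median, and 65.5% lay at boundaries. They included the Polr2a, Nrip1 and Dusp1 boundary regions. Of the 72h-only regions, 319 (19.8%) were called in all 4 other lists, so that only the continuous-E2 list lacked them, and 68.3% of these lay at boundaries. The widest was at Mepce, a methyltransferase that caps 7SK RNA, with 1902, 1768, 1818, 1760 and 1369 bases. Another 207 (12.9%) were in no other list and had a median width of 334 bases, and 201 were called at 120 h alone.

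The promoters of the classes differed in composition. Of the 300-base windows around RefSeq starts, 1311 overlapped a 0h-only region, 868 a 72h-only region and 7301 a shared region, and 32817 were tabled in all, on every chromosome but 18. The median GC content was 59.3%, 63.2% and 62.7%, against 52.7% over all windows. The ratio of observed to expected CpG exceeded 0.6 in 60.6% of 0h-only, 84.1% of 72h-only and 86.7% of shared windows, against 35.8% of all. In this respect 72h-only promoters lay near shared ones and 0h-only promoters between those and all others.

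Letters rich in CG were least common at 0h-only promoters among the 3 classes. GGGCGG was in 56.1% of 0h-only, 73.0% of 72h-only and 72.3% of shared windows against 35.6% of all, and CCGGAAG in 14.2%, 20.4% and 24.1% against 8.86%. CCAAT was in 28.2%, 37.2% and 41.8% against 37.4%. The myeloid and homeodomain letters were about as common in the classes as over all windows, or less common. GAGGAAGT was in 3.28%, 3.11% and 3.05% against 3.20%, TTGCNNAA in 7.63%, 9.33% and 7.42% against 10.8%, and TGACAG in 17.8%, 15.8% and 16.4% against 19.2%. TGANTCA was in 4.96%, 4.03% and 3.68% against 7.81%, TGTGGTT in 4.88%, 2.76% and 3.41% against 5.27%, and TGATTNAT in 1.60%, 0.806% and 0.699% against 3.22%. Most 0h-only regions lie away from promoters, and the sequence of those regions was not analysed here.

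MicroRNA hairpins were also near these regions. Of 1005 hairpins in the RefSeq table, 14 lay within 2000 bases of a 0h-only region, 25 of a 72h-only region and 77 of a shared region. Clustered hairpins can share a region, and the regions concerned were 14, 19 and 68. In all, the classes held 5231, 1609 and 7934 regions, and a difference between classes was not tested. The mature sequences of 3 loci, chosen after their values were seen, are given with the seed (bases 2 to 8) in capitals. MicroRNAs pair with target messages mainly through the seed, so arms with the same seed share many targets.
mmu-miR-142a-5p: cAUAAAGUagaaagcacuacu
mmu-miR-142a-3p: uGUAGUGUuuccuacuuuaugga
mmu-miR-132-3p: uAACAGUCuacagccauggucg
mmu-miR-212-3p: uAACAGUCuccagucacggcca
mmu-miR-574-5p: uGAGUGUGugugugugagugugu
mmu-miR-574-3p: cACGCUCAugcacacacccaca

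Mir142, whose products are abundant in blood cells, lay 1164 bases from a 72h-only region (chr11:87755322-87755700) of 364 bases after 56 h and 379 after 72 h, with no call in the other lists. Mir132 and Mir212, whose 3p arms share the seed AACAGUC, lay at a 72h-only region (chr11:75173004-75173670). It overlapped Mir212, ended 12 bases from Mir132 and measured 996 bases after 24 h, 690 after 56 h and 667 after 72 h. Mir574 lay at a 0h-only region of Fam114a1 (chr5:64969134-64970441) of 1308 bases in continuous E2 and 1135 after 24 h.

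The classes were spread over all chromosomes. The 0h-only share ran from 32.3% on chromosome 11 (29.2 to 35.5) to 44.8% on chromosome 14 (40.4 to 49.3), and the 72h-only share from 11.5% on chromosome 18 (8.13 to 16.0) to 23.2% on chromosome 11 (20.3 to 26.4). Chromosome 11 thus had the lowest 0h-only and the highest 72h-only share. The median gap between neighbouring regions of a class was 158 kb for 0h-only, 463 kb for 72h-only and 91.4 kb for shared regions, and 11.4%, 5.66% and 14.4% of the gaps were under 20 kb.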

How the data were processed

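ATAC-seq peak lists of 6 groups were used, 1 per group of 2 libraries. Each deposited list gives chromosome, start and end as the authors made them, with no other value, so the values carry no expression or score unit. The submitters' processing notes name BWA (no version), MACS2 2.0 and STAR 2.5, without roles, and the build mm9. How the 2 libraries were combined, and depth, are not given in the sources used here. Coordinates were checked against GRCm38.p6 genes: 52.4% of continuous-E2 and 67.3% of 72 h peaks lay at a gene boundary, against 6.17% and 6.20% after a shift of 1 Mb, so GRCm38 was used.

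Exact duplicates (2530 of 16884 entries in continuous E2 and 173 of 10257 after 72 h) and intervals over 10000 bases (14 and 1) were dropped, all on chromosomes 18 and 19, and overlapping entries were merged, which removed 1175 and 502. Each region was assigned to an overlapping protein-coding gene, otherwise to the nearest boundary within 50000 bases. Strand came from the promoter table, which holds 79.9% of 21883 protein-coding genes, so gene boundaries were kept as the main measure and start sites were added. Exon and intron positions were not analysed here.

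No test was run, since 1 list stands for each group. Shares have 95% Wilson intervals, differences Newcombe intervals. Classes and gene assignment were tested on simulated data, where 3000 regions and 400 assignments were all recovered. Members and the 14 gene lists were chosen with earlier results of these data known. Named genes followed a rule: per list up to 4 with the most 0h-only, 4 with the most 72h-only and 2 with the most shared regions (ties by summed width), the 10 leading genes of each kind, the 5 widest regions per class and a fixed set of myeloid genes. Other list members were named after their values were seen, and some list members are not reported here. The alternatives varied overlap, width, list length, cleaning, chromosomes, boundary window and assignment distance. Python 3.11.15, pandas 2.3.3, numpy 2.4.6, scipy 1.17.1 and matplotlib 3.10.9 were used.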

Additional observations from a re-analysis of the deposited data

How the results depend on the processing

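Of 226 values recomputed under 10 alternative settings, 157 stayed within the interval of the reported value and 69 did not. The cause was not tested, except that equal list lengths remove narrow peaks from the longer list by construction. No paired analysis was possible because each group has a single list without values per library, which also prevents leaving out a replicate. Counting peaks within 500 bases as shared could change no class, since the closest unpartnered peaks lay 799 and 756 bases from the other list. Its values are among the 157. Leaving overlapping entries unmerged moved none of the values it was run for. Depth, unknown here, limits every absent call.

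Under 50% reciprocal overlap, 48.0% of continuous-E2 peaks were 0h-only and 28.5% of 72 h peaks 72h-only. The share of 0h-only regions called after 24 h was then 58.6%. Boundary shares were 29.2% (0h-only), 52.3% (72h-only) and 73.8% (shared), and median widths 738 bases (0h-only) and 905 (shared). With peaks at or above their list's median width, 25.6% were 0h-only and 10.5% 72h-only. Of 0h-only regions 64.7% were called after 24 h and 11.5% at 120 h, and of 72h-only regions 54.9% and 67.3%. Boundary shares were 38.5%, 69.5% and 80.6%, and median widths 1064, 754 and 1071 bases, for 0h-only, 72h-only and shared. With equal list lengths, the shares were 30.0% and 29.6%. Of 0h-only regions 63.8% were called after 24 h and 8.89% at 120 h, and of 72h-only regions 61.1% and 62.2%. Boundary shares were 30.7% (0h-only) and 77.4% (shared), and median widths 894, 427.5 and 982 bases. Without chromosomes 18 and 19, median widths were 670 bases (0h-only) and 911 (shared). With a boundary window of 500 bases the boundary shares were 20.7%, 43.9% and 70.3%, and with 2500 bases 27.2%, 53.1% and 76.0%. The order of the classes in boundary share was the same under each of these settings.

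Of 168 values for gene lists, 138 stayed within their interval. Under 50% reciprocal overlap the 0h-only share was 77.5% for the progenitor list, 83.3% for monocyte, 84.6% for estrogen-responsive and 100% for mast cell genes (of 6 regions). The 72h-only share was then 55.6% for progenitor, 84.6% for monocyte, 40.0% for cytokine receptor and 27.6% for housekeeping genes. It was 66.7% for estrogen-responsive (of 6), 50% for lymphoid (of 4) and 100% for mast cell genes (of 4). With wide peaks the 0h-only share was 12.5% for transcription factors (of 8 regions), 100% for monocyte (of 2), 5% for cell cycle (of 20) and 0% for mast cell genes (of 2). The 72h-only share was then 5.88% for progenitor, 8.33% for immediate early, 15.4% for phagocyte and 12.5% for cytokine receptor genes. It was 100% for monocyte (1 region) and 25% for erythroid genes (of 4). It was 0% for primary granule (of 1), late neutrophil (of 4), estrogen-responsive (of 3) and mast cell genes (of 2). With equal list lengths the 0h-only share was 16.7% for late neutrophil (of 6 regions) and 0% for mast cell genes (of 2). The 72h-only share was then 42.4% for immediate early and 25% for housekeeping genes. Assignment within 20000 bases gave a 72h-only share of 0% for mast cell genes (of 2 regions).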

Other observations

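Further genes had wide regions of a single class. The 72h-only region inside Nr3c1, which encodes the glucocorticoid receptor, was 2810 bases wide after 40 h and 2589 after 72 h, and was called in no other list. Boundary regions at U2af2, a splicing factor, measured 1881, 1715, 1730 and 1691 bases in the lists of 40, 56, 72 and 120 h. The one at Anp32b, a histone chaperone, measured 2028 bases after 24 h, 1906 after 40 h and 1673 after 72 h. At Kmt2c, a histone H3K4 methyltransferase, the boundary region measured 1650, 1484, 1262, 1315 and 1493 bases and was missing from the continuous-E2 list alone, and at Kmt2e it measured 2054, 1790, 1723 and 1703 bases in the lists of 0, 40, 56 and 120 h. Kmt2c and Kmt2e were chosen after their values were seen.

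The widest shared regions included 1 that hardly differed between lists. It lay 114 kb from the nearest protein-coding gene on chromosome 14 and measured 3629, 3649, 3679, 3656, 3653 and 3642 bases from 0 to 120 h. Others narrowed, such as the boundary region of Smarca2, a chromatin remodelling ATPase, with 3049 bases in continuous E2, 2406 after 24 h, 802 after 40 h and 557 after 72 h. At Mnt, a Max-binding repressor, it was 2998 bases wide in continuous E2 and 1605 after 72 h.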
